A study of Homo sapiens with 6 samples.

Results

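The genes described here encode the insulin-like growth factor (IGF) binding proteins IGFBP1 to IGFBP7 and the receptors IGF1R and IGF2R. They were chosen by name, 9 genes in all, and found by gene symbol in the annotation of the array. For each gene the probe set that names 1 gene only and has the highest mean over the 6 arrays was used. This gave 8 measured members among 18417 genes tested. They were 6 binding proteins and 2 receptors. IGFBP6 was not analysed here, because its probe set is annotated with a second gene.

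All 6 samples were A549 cells, a human lung adenocarcinoma line, kept as stable cells. They were grown with 10% serum, left overnight without it and then treated for 48 h with VP-16. VP-16 is etoposide, which traps topoisomerase II on broken DNA. In 3 samples the cells carried the label H2AX knockdown (called P1 in the source names), and in 3 they were the control cells (C). Both groups received the drug, so its own effect was not measured, and how many stable lines each group holds is not given in the sources used here. Should a group be 1 line, its p-values cover the spread of experiments and tell nothing of line to line variation.

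IGF1 and IGF2 are secreted growth factors that act through the tyrosine kinase receptor IGF1R, which drives PI3K, AKT and ERK signalling and cell survival. IGFBP1 to IGFBP6 bind the ligands with high affinity and so hold them in the fluid around the cell, carry them, or keep them from the receptor. IGFBP7 binds IGFs with low affinity, and is a secreted matrix-associated protein of the same superfamily. IGF2R has no kinase domain. It takes IGF2 to lysosomes for degradation and also sorts enzymes tagged with mannose 6-phosphate.

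The set of RefSeq promoter sequences used here covered 7 of the 9 genes (build GRCh38.p14), with 3 entries for IGFBP2. That set had no entry under the names IGFBP1 and IGFBP7. The 120 bases before the annotated start are shown for both receptors and for the binding proteins IGFBP3 and IGFBP4, since these starts differ in their letters. Capitals mark TATANA, the core letters of a TATA box, in the binding protein genes and CACGTG, the E-box palindrome, in IGF2R, each read on the gene's own strand.
IGFBP3, chr7:45921273-45921392, minus strand: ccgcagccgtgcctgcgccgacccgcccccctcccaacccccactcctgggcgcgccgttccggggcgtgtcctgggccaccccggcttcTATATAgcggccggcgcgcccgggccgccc
IGFBP4, chr17:40443330-40443449, plus strand: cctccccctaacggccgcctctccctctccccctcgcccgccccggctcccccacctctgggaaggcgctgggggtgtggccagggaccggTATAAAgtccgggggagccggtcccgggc
IGF1R, chr15:98648419-98648538, plus strand: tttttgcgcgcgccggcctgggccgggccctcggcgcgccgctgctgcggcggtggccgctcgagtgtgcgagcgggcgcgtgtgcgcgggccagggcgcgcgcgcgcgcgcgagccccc
IGF2R, chr6:159968962-159969081, plus strand: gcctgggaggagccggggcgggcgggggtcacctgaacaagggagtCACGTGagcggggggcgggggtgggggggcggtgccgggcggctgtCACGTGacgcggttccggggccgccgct

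Over the 250 bases before each start, TATANA was found on either strand in 17.7% of the 35116 RefSeq entries, and on the gene's own strand in 13.0%. CACGTG, which reads the same on both strands, was found in 6.34%. On the gene's strand TATANA began 30 bases before the start of IGFBP3 and 29 bases before that of IGFBP4. In the same window the other IGFBP entries and both receptors had no TATANA. IGF2R held CACGTG 3 times, beginning 132, 74 and 28 bases before its start, and the first of these lies outside the stretch shown. The share of G and C over the 250 bases was 81.2% for IGF1R, 79.2% for IGF2R, 76.0% for IGFBP3 and 71.6% for IGFBP4. These are descriptions of the letters, not of bound sites.

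The values are log2 signals, made with RMA by the submitters, where a difference of 1 is 2-fold. Differences are the arrays labelled H2AX knockdown minus control, tested with limma over all genes, with Benjamini-Hochberg adjustment and a threshold of 0.05. Levels of different genes come from different probes and are not set against each other. H2AX itself (probe set 7952179) read 5.28, 5.17 and 5.49 in the knockdown-labelled arrays, against 5.11, 5.27 and 5.26 in the controls, so its signal does not show the labelled knockdown. That difference was 0.10 ± 0.16 (SE, limma adjusted p = 0.823). Replicate 1 of the knockdown-labelled arrays stood apart, with the smallest SD of all its values (1.60, against 1.71 to 1.86 in the others). Genes were placed in 5 bins of equal size by mean signal, and those in the brightest bin had a median difference of −0.25, with 85.3% of them below 0. Of the epithelial markers of A549, KRT8, KRT18, ALDH1A1, ALDH3A1 and AKR1B10 lay above the 98th percentile of genes by signal. CDH1 lay at the 87.6th percentile, KRT19 at the 65.8th and EPCAM at the 17.2th. None of the 8 epithelial markers passed the threshold, and their mean log2 signal was 6.69 to 7.02 in the knockdown-labelled arrays, against 6.89 to 7.11 in the controls. At an unadjusted p under 0.05 there was 1 of them on the lower side, ALDH1A1 (−0.61, limma adjusted p = 0.273), against 8.38% of all genes.

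No member passed the threshold. Of the 8 measured members 0 were called in either direction (limma adjusted p), where 0.0326% of all genes were so called. At an unadjusted p under 0.05 there was 1 member, IGFBP7, against 12.2% of all genes in either direction. The differences were below 0 for 5 members (51.5% of all genes) and above 0 for 3. Their median was −0.022, and over all genes it was −0.011. Every measured member except IGFBP5 lay in the brightest bin, where 85.3% of genes were below 0 and the median was −0.25. In that bin 6.11% of genes had a difference as high as IGF1R and 14.8% one as high as IGFBP2. After quantile normalization or cyclic loess 3 members were below 0 and 5 above, with medians of 0.098 and 0.15. The arrays of the groups did not overlap for 1 member, again IGFBP7, which was lower, and this was so for 9.82% of all genes in that direction. With 1 gene in 8 neither share sets the family apart from the background.

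**Figure D1:**
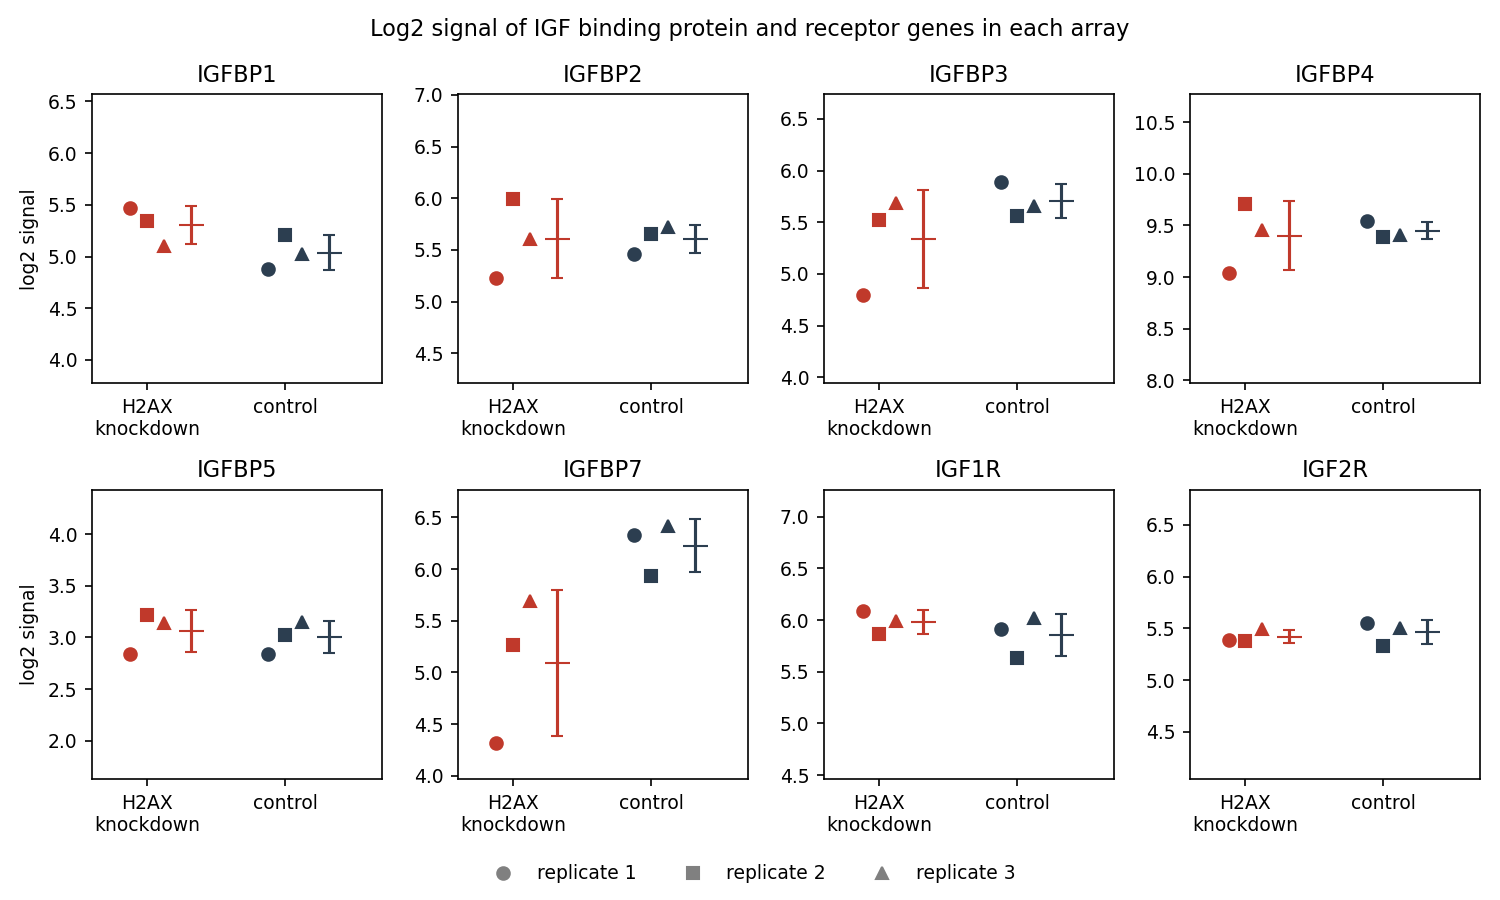
Log2 signal (vertical axis, spanning 2.8 units in each panel) of the 8 measured members in each array, knockdown-labelled arrays in red and controls in dark blue. Symbols are replicates, and the bars beside them give the mean ± SD of 3 arrays. The red and blue points are apart for IGFBP7, where the knockdown-labelled arrays lie at 5.69 or lower and the controls at 5.94 or higher, and they overlap for the other members.

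IGFBP7, the low-affinity member that also binds to the extracellular matrix and is induced in some senescent cells, had the largest difference in the family. Its probe set (8100541, Entrez gene 3490) read 4.32, 5.27 and 5.69 in knockdown-labelled replicates 1, 2 and 3, against 6.33, 5.94 and 6.42 in control replicates 1, 2 and 3. All 3 knockdown-labelled arrays lay below all 3 controls, and replicate 1 lay farthest below. The means were 5.09 ± 0.70 in knockdown-labelled arrays and 6.23 ± 0.26 in controls (SD, n = 3 each). The difference was −1.13 ± 0.28 (SE), with a 95% interval of −1.74 to −0.53, which puts the signal at 45.5% of the control signal (29.9% to 69.4%). It did not pass the threshold (limma adjusted p = 0.227, unadjusted p = 0.0014). The exact permutation test gave a 2-sided p of 0.1, the smallest that 3 against 3 arrays allow.

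By the size of its difference IGFBP7 ranked 11 from the lowest of the 18417 genes, and it was among the 23 genes (0.125%) that were at least 2-fold lower. By its p it ranked 112. In the brightest bin, to which it belongs, 0.109% of 3684 genes had a difference as low. The spread among the knockdown-labelled arrays was wide: their range was 1.38, against 0.48 in the controls. Relative to the mean of the controls, IGFBP7 stood at −1.91, −0.96 and −0.53 in knockdown-labelled replicates 1, 2 and 3.

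The size of the IGFBP7 difference rested in part on knockdown-labelled replicate 1. Without that array it was −0.75, and without knockdown-labelled replicate 3 it was −1.44. Over all 15 alternatives the difference stayed between −1.44 and −0.75, with an unadjusted p of 0.0068 at the most. Its limma adjusted p ran from 0.0237 to 0.928, the highest value being that without control replicate 1. It passed the threshold with array weights only (−1.11, limma adjusted p = 0.0237), a setting in which 155 genes were called lower and 36 higher over the whole table. Array weights gave control replicate 3 a weight of 5.03, against 0.41 to 1.22 for the other arrays. After cyclic loess, which fits and removes differences between arrays that vary with brightness, the IGFBP7 difference was −0.92 (limma adjusted p = 0.427).

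**Figure D2:**
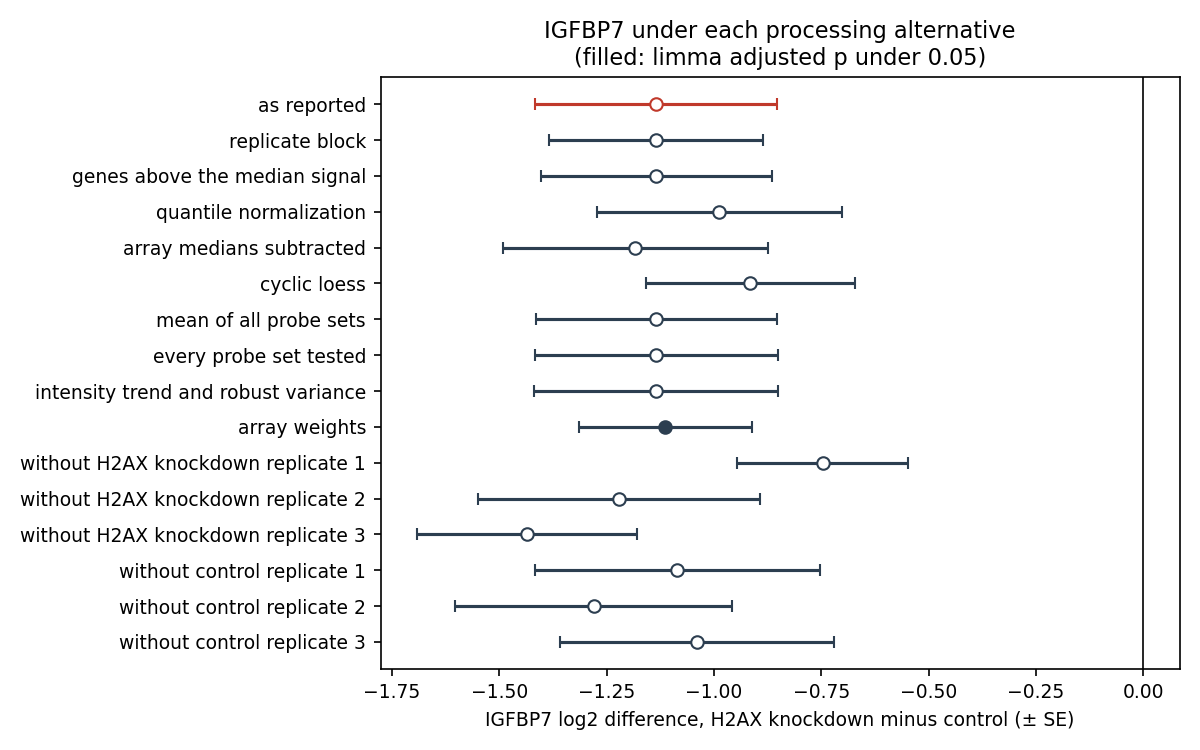
Log2 difference of IGFBP7 (horizontal axis, knockdown-labelled minus control, bars ± SE) as reported, in red, and under each of 15 processing alternatives, in dark blue. Every point lies below 0, between −1.44 and −0.75, and the filled point, array weights, is the one with a limma adjusted p under 0.05.

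IGFBP3, the main carrier of IGFs in blood and a secreted protein with pro-apoptotic effects in cultured cells, had the next largest difference. Its probe set (8139488) read 4.79, 5.52 and 5.69 in knockdown-labelled replicates 1, 2 and 3, against 5.89, 5.57 and 5.66 in the controls. Replicate 1 was low and the other two lay among the controls or just below them, so the groups overlapped. The means were 5.33 ± 0.47 in knockdown-labelled arrays and 5.70 ± 0.17 in controls (SD, n = 3 each), a difference of −0.37. The 95% interval ran from −0.84 to 0.10 (limma adjusted p = 0.505). In its bin by signal, the brightest, 30.0% of genes had a difference as low. Without knockdown-labelled replicate 1 the difference was −0.10, and without knockdown-labelled replicate 3 it was −0.55 (unadjusted p = 0.0284, limma adjusted p = 0.265).

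IGFBP1, a liver-type binding protein that insulin signalling represses, read on the other side. Its probe set (8132694) gave 5.47, 5.35 and 5.10 in knockdown-labelled replicates 1, 2 and 3, against 4.88, 5.21 and 5.02 in the controls. Replicates 1 and 2 of the knockdown-labelled arrays lay above all controls, and replicate 3 lay between control replicates 2 and 3. The difference was 0.27 ± 0.17 (SE) and its 95% interval ran from −0.10 to 0.63 (limma adjusted p = 0.532). Among the genes of the same bin 2.17% had a difference as high. The difference was 0.41 after quantile normalization (unadjusted p = 0.0452) and 0.43 after cyclic loess (unadjusted p = 0.0361), with limma adjusted p of 0.615 and 0.582. IGFBP1 and IGFBP3 are neighbours on chromosome 7, with no other protein-coding gene between them in RefSeq, and their differences had opposite signs.

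IGFBP2 and IGFBP5 form the other neighbouring pair, on chromosome 2. IGFBP2, a binding protein often raised in tumours (probe set 8048205), read 5.23, 5.99 and 5.61 in the knockdown-labelled arrays, against 5.46, 5.65 and 5.72 in the controls. The knockdown-labelled arrays spread on both sides of the controls, and the difference was −0.0016 ± 0.20 (SE, limma adjusted p = 0.998). Its 95% interval, −0.43 to 0.42, leaves room for a fall of up to 25.6% or a rise of up to 34.2%. IGFBP5, which binds to matrix and bone mineral (probe set 8058857), read 2.84, 3.22 and 3.14 in the knockdown-labelled arrays, against 2.84, 3.02 and 3.15 in the controls. Its values interleaved, with a difference of 0.06 ± 0.17 (SE, limma adjusted p = 0.900). By signal it stood at the 30.4th percentile, lowest of the members, where a small change is hard to read.

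IGFBP4, which mostly inhibits IGF action until the protease PAPPA cleaves it, was at the 99.7th percentile by signal. Its probe set (8007100) read 9.04, 9.70 and 9.46 in the knockdown-labelled arrays, against 9.54, 9.39 and 9.41 in the controls. Replicate 1 of the knockdown-labelled arrays was the lowest of all 6 and replicate 2 the highest. The difference was −0.05 ± 0.19 (SE) and its 95% interval ran from −0.45 to 0.35 (limma adjusted p = 0.932). Of the 6 binding proteins, IGFBP1 had its highest value of the 6 arrays in knockdown-labelled replicate 1, and the other 5 had their lowest there, IGFBP5 by 0.0026.

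**Figure D3:**
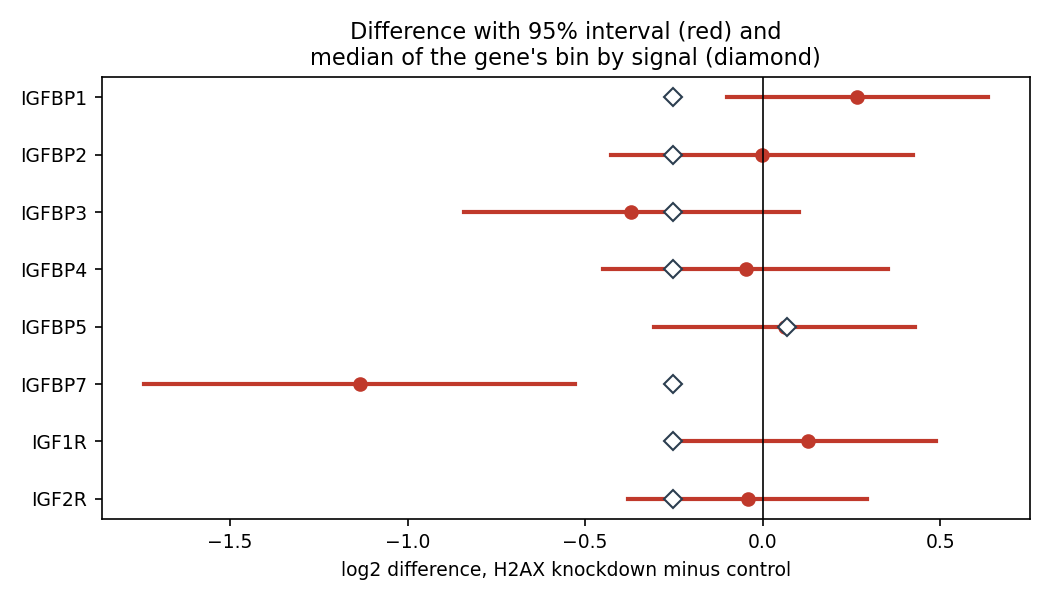
Log2 difference of each measured member (horizontal axis, knockdown-labelled minus control) as a red point with its 95% interval, and the median difference of all genes in the same bin by mean signal as an open diamond. The interval of IGFBP7, −1.74 to −0.53, is the one that does not reach 0, and it lies below the diamond at −0.25.

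IGF1R, the signalling receptor, had 2 probe sets, and they differed in sign. The brighter one (7986359), used for the gene, read 6.09, 5.86 and 5.99 in the knockdown-labelled arrays, against 5.92, 5.63 and 6.02 in the controls. These groups overlapped, and the difference was 0.13 ± 0.17 (SE) and its 95% interval ran from −0.23 to 0.49 (limma adjusted p = 0.776). The dimmer one (7986383) read 3.72, 3.44 and 3.68 in the knockdown-labelled arrays, against 4.25, 3.90 and 3.85 in the controls. There all knockdown-labelled arrays lay below all controls, and the difference was −0.39 ± 0.17 (SE). It did not pass the threshold over all probe sets (limma adjusted p = 0.400, unadjusted p = 0.0414). Among all genes, 9.82% did not overlap on the lower side and 8.38% were lower at an unadjusted p under 0.05. With both probe sets averaged the difference of IGF1R was −0.13. Which part of the transcript each probe set covers is not given in the sources used here.

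**Figure D4:**
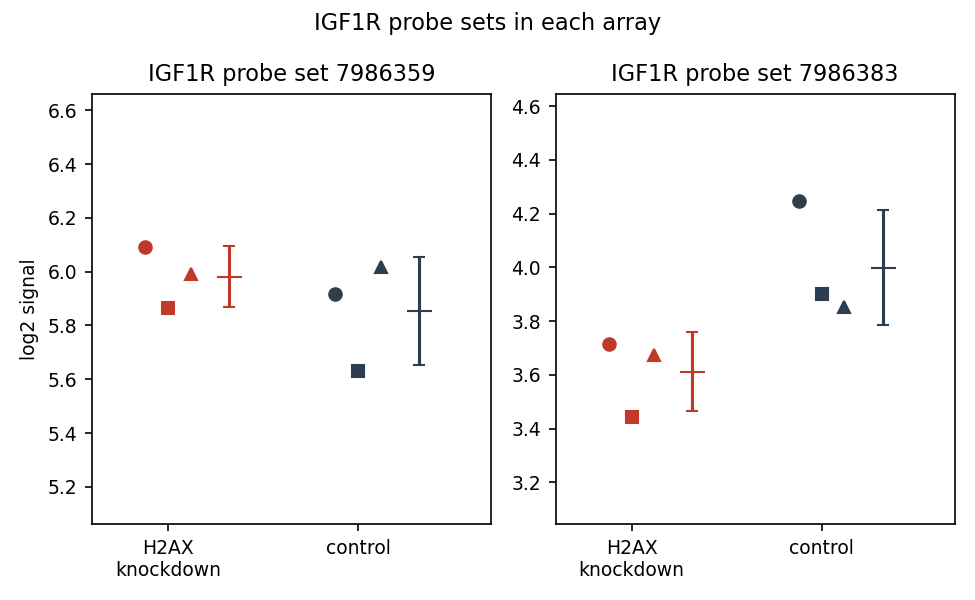
Log2 signal (vertical axis, 1.6 units in each panel) of the brighter (left) and dimmer (right) probe set of IGF1R in each array, knockdown-labelled in red and control in dark blue, with the mean ± SD of 3 arrays. The brighter probe set overlaps between the groups, and the dimmer one reads at most 3.72 in the knockdown-labelled arrays and at least 3.85 in the controls.

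IGF2R, the receptor that clears IGF2 and sorts lysosomal enzymes (probe set 8123181), had the narrowest range over the 6 arrays of the measured members. It read 5.39, 5.37 and 5.50 in the knockdown-labelled arrays, against 5.55, 5.33 and 5.51 in the controls. The groups overlapped and the difference was −0.04 ± 0.16 (SE, limma adjusted p = 0.928). Its 95% interval, −0.38 to 0.29, excludes a fall of more than 23.1% and a rise of more than 22.6% in this signal as deposited. These bounds depend on the normalization, since the IGF2R difference was 0.15 ± 0.14 (SE) after cyclic loess.

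The genes whose pattern over the 6 arrays was most like that of IGFBP7 were MLKL, the effector of necroptosis, YIPF1, and FAM83G, a partner of SMAD signalling. Pearson's r was 0.996 for MLKL, 0.995 for YIPF1 and 0.995 for FAM83G, and Spearman's rho was 1 for each. Without knockdown-labelled replicate 1 and control replicate 3, the arrays farthest from the median of IGFBP7, r was 0.990, 0.984 and 0.981. As many as 1020 genes had an r above 0.9 with IGFBP7 over these 6 arrays, so such values were common, and they are given as a description. MLKL had a difference of −0.45, YIPF1 of −0.50 and FAM83G of −0.83, with limma adjusted p of 0.369, 0.360 and 0.273. Within the family r with IGFBP7 was 0.91 for IGFBP3 and −0.91 for IGFBP1, and from −0.34 to 0.55 for the others.

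Genes around the family held calls in 1 list of 9. The share of all genes at an unadjusted p under 0.05 was 8.38% lower and 3.78% higher, and the counts below are read against it. Among the ligands, the blood carrier IGFALS and the insulin receptors, 0 of 4 measured genes passed the threshold, with a median of 0.065 and 1 gene, IGFALS, higher at an unadjusted p under 0.05. IGFALS, which holds IGFs and IGFBP3 or IGFBP5 in a ternary complex, read 4.79, 4.78 and 4.68 in the knockdown-labelled arrays, against 3.91, 4.63 and 4.39 in the controls, a difference of 0.44 ± 0.19 (SE, limma adjusted p = 0.390). IGF1 had a difference of 0.08 and INSR, the insulin receptor, of 0.05. IGF2 and INS were not analysed here.

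Proteases that cut IGFBPs, and their inhibitors, gave 0 of 13 past the threshold, with 3 on the lower and 0 on the higher side at an unadjusted p under 0.05 and a median of −0.08. The largest differences were those of STC2 and STC1, the stanniocalcins that inhibit PAPPA, and of ADAM9, a membrane metalloprotease. STC2 was at −0.55 ± 0.20, STC1 at −0.48 ± 0.17 and ADAM9 at −0.45 ± 0.18 (SE), with limma adjusted p of 0.337, 0.329 and 0.369. In each of these genes the knockdown-labelled arrays all lay below the controls, as in 9.82% of all genes. For STC2 the margin was small, with 3.402 in knockdown-labelled replicate 2 and 3.404 in control replicate 1. PAPPA itself, the protease of IGFBP4, was at 0.01.

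Genes that share the IGFBP domain gave 0 of 12 past the threshold and a median of 0.087, with 1 on the lower and 0 on the higher side at an unadjusted p under 0.05. CRIM1, a transmembrane protein that binds BMPs, was at −0.42, CCN1, a matricellular protein, at −0.34 and ESM1, an endothelial proteoglycan, at 0.30. Adaptors of IGF1R and the PI3K, AKT and mTOR genes gave 0 of 24, with 2 on the lower and 0 on the higher side at an unadjusted p under 0.05 and a median of −0.16. That median was −0.013 without knockdown-labelled replicate 1, −0.241 without control replicate 2, −0.058 after quantile normalization and −0.021 after cyclic loess. RICTOR, a subunit of mTORC2, was at −0.48, PDPK1, the kinase that activates AKT, at −0.46 and the adaptor GRB14 at −0.38. FOXO factors and their targets, the genes that rise when AKT is inactive, gave 0 of 15, with 3 on the lower and 0 on the higher side at an unadjusted p under 0.05. SESN1 was at −0.49, BCL6 at −0.47 and TXNIP at −0.45, while the median was −0.05.

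Genes of the mannose 6-phosphate route, in which IGF2R works, gave 0 of 16 past the threshold, with 4 on the lower and 0 on the higher side at an unadjusted p under 0.05 and a median of −0.22. GNPTAB, a subunit of the enzyme that makes the tag, was at −0.50, M6PR, the smaller receptor for it, at −0.47 and VPS26A, a retromer subunit, at −0.46. After cyclic loess the median of this list was −0.05. The 3 IGF2 mRNA-binding proteins were all below 0, from −0.26 for IGF2BP2 to −0.16 for IGF2BP3. Their median was −0.22 and none was called in limma (0 also at an unadjusted p under 0.05). The median was −0.092 without knockdown-labelled replicate 1, and −0.356 with replicate 3 of that group left out. Leaving out control replicate 1 gave −0.105.

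Among p53 targets, a class to which IGFBP3 belongs, 0 of 5 measured genes passed the threshold, with 3 lower at an unadjusted p under 0.05 and a median of −0.43. TP53I3 was at −0.53, GDF15 at −0.44 and the death receptor FAS at −0.43. The median gene of these p53 targets lay at the 97.5th percentile of signal, and bright genes as a whole read below 0. In their own bins by signal, 9.72%, 19.4% and 9.75% of genes were as low as TP53I3, GDF15 and FAS. The list of secreted genes of senescent cells, in which IGFBP3 and IGFBP7 are often counted, had a median of −0.44. At an unadjusted p under 0.05 it had 7 of 13 genes on the lower and 0 on the higher side. It held 2 of 13 genes past the threshold, both lower: the cytokine IL1B and the chemokine CXCL1. These were known from earlier results when the list was made. Both calls were lost with any 1 array left out except knockdown-labelled replicate 3, and also after quantile normalization or cyclic loess (limma adjusted p of 0.0538 to 0.172 in these settings). That of CXCL1 was lost with the replicate block too (limma adjusted p = 0.0638). IL1B was at −1.48 ± 0.19 and CXCL1 at −1.25 ± 0.16 (SE, limma adjusted p = 0.016), and CCL2, a monocyte chemokine, was at −1.13 (limma adjusted p = 0.074). IGFBP7 was thus close to CCL2 in the size of its difference, but its SE was 0.28, against 0.19 for CCL2.

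**Figure D5:**
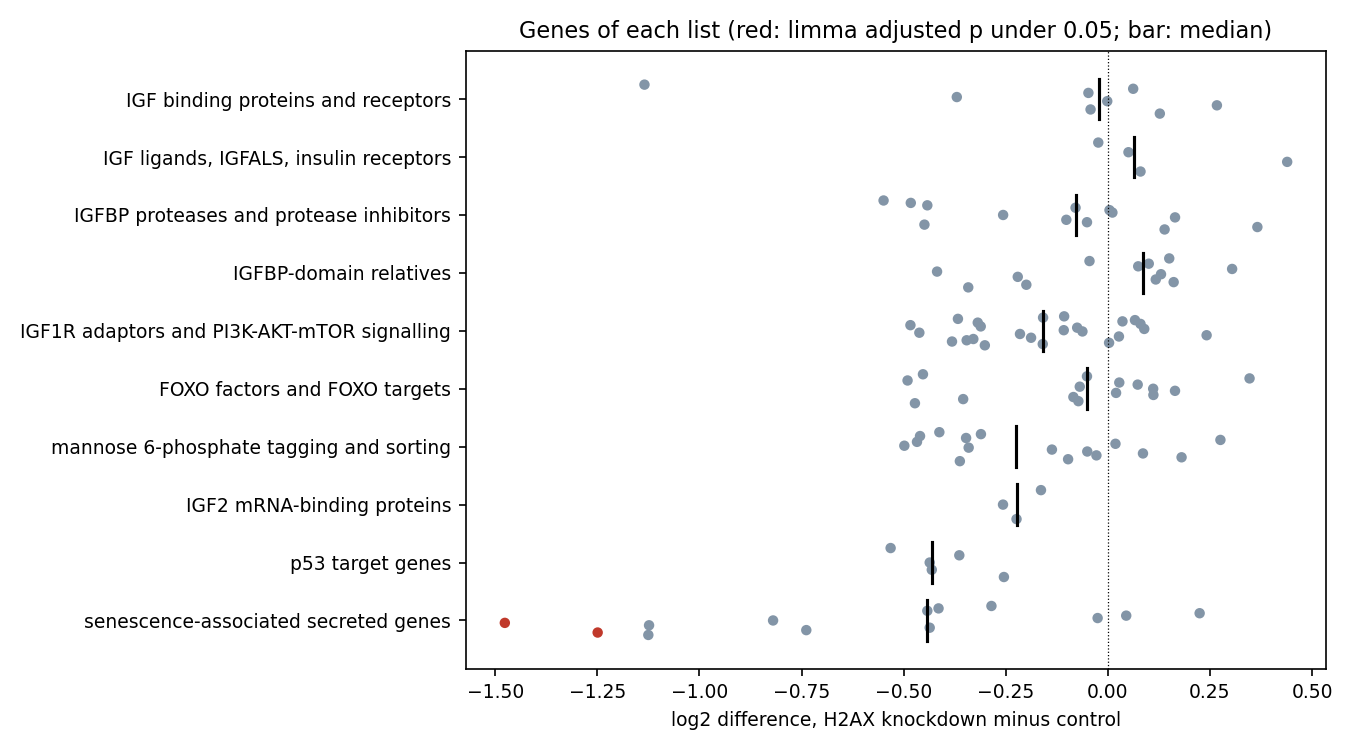
Log2 difference (horizontal axis, knockdown-labelled minus control) of each measured gene in the family and in 9 lists around it, with the median of each list as a black bar and genes past the threshold in red. The family has a median of −0.02 with IGFBP7 far to the left, and the 2 red points are IL1B and CXCL1.

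IGFBP7 is also made by fibroblasts and endothelium, so markers of these cells were read in the same arrays. Of 10 fibroblast markers 0 passed the threshold, with 10 above 0 as deposited, and 8 after quantile normalization and 9 after cyclic loess or with array medians subtracted. At an unadjusted p under 0.05 there were 2 on the higher side, POSTN and LUM, and 0 on the lower, against 3.78% and 8.38% of all genes. The mean log2 signal of the 10 fibroblast markers was 3.05 to 3.39 in the knockdown-labelled arrays, against 2.83 to 2.96 in the controls. Dim genes as a whole read above 0: in the dimmest bin 18.3% of genes were below 0, and 36.1% in the next, while the median gene of the fibroblast list lay at the 27.6th percentile of signal. The part of these markers in the IGFBP7 difference was not tested. Of 6 endothelial markers 0 passed, and their mean was 3.10 to 3.31 in the knockdown-labelled arrays, against 2.995 to 3.24 in the controls. Of 7 blood cell markers 0 passed, with a mean of 2.72 to 3.06 in the knockdown-labelled arrays, against 2.77 to 2.97 in the controls. The median gene of each of these lists lay below the 30th percentile of signal, and no call of absence can be made from these values. In such bulk samples of A549 cells, fewer cells that make a transcript and less of it per cell cannot be told apart.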

How the data were processed

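The authors deposited log2 signals for 33297 probe sets on 6 arrays. RMA is the method that the submitters' processing notes name for them, with no version. The log2 scale was read from the values (0.611 to 13.2). Signal over background is not given in the sources used here, so the number of arrays limits the precision. In the platform annotation, which can be old, 19460 probe sets name 1 gene, and those naming several were not used. Where a gene had several (769 of 18417 genes), the brightest over the 6 arrays stood for it. Dim genes were kept.

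Groups came from the sample titles. The test was limma 3.58.1 (R 4.3.3) with lmFit and eBayes, 2-sided, with no covariate and Benjamini-Hochberg adjustment over all genes. Single genes also had an exact permutation test over arrays. Genes outside the family were named by rule, the 3 largest differences of each list and any past the threshold. PAPPA and the markers were named outside it, after their values were seen. The members and lists were chosen with earlier results of these data known. On simulated arrays for this comparison, with 18417 genes, the procedure recovered 60% of 100 genes changed by 1 and 94% of 100 changed by 2 on the log2 scale, with 11 false among 165 calls. The simulated noise was independent between genes, with no shift by brightness and no array standing apart. These rates therefore need not hold for the real arrays. Figures were drawn with matplotlib 3.10.9. The 15 alternatives, each 1 change to the processing, are named with their values in the closing section, and include a replicate block, other normalizations, array weights and each array left out. Promoter letters are from RefSeq (GRCh38.p14).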

Additional observations from a re-analysis of the deposited data

How the results depend on the processing

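IGFBP7 stayed below 0 in all 15 alternatives and was called with array weights only (−1.11, limma adjusted p = 0.0237), the setting in which 1 member was called. Members not called turned sign under some alternatives, always without a call. After quantile normalization IGFBP2 was at 0.16, IGFBP4 at 0.067, IGFBP5 at −0.039 and IGF2R at 0.13, and after cyclic loess at 0.21, 0.15, −0.021 and 0.15. With array weights IGFBP2 was at 0.056, IGFBP4 at 0.086 and IGF1R at −0.024, and with all probe sets averaged IGF1R was at −0.13. With each array left out in turn, IGFBP2 ran from −0.19 to 0.19, IGFBP4 from −0.20 to 0.13, IGFBP5 from −0.020 to 0.18, IGF1R from 0.015 to 0.21 and IGF2R from −0.11 to 0.0017. Members at an unadjusted p under 0.05 were 2 after quantile normalization and 2 after cyclic loess, where IGFBP1 joined IGFBP7, and 1 to 2 with each array left out. Leaving out 1 array, genes called lower were 0 to 8, genes called higher 0 to 1, and genes at an unadjusted p under 0.05 944 to 2928.

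Over all genes, 5 were called lower and 1 higher. With the replicate number as a block these were 3 and 0, and IGFBP7 had a limma adjusted p of 0.370. Deviations of same-numbered arrays from their group means had an r of −0.31, −0.02 and 0.07 for numbers 1, 2 and 3. Not every array correlated best with its own number. With 3 arrays per group these values cannot decide whether the numbers pair the samples, and the labels do not say. With genes above the median signal the counts were 14 and 2, with quantile normalization 0 and 0, with cyclic loess 0 and 0, with all probe sets averaged 3 and 0, and with array weights 155 and 36. They were 4 and 0 with array medians subtracted or with every probe set tested, and 4 and 1 with an intensity trend and robust variance (IGFBP7 limma adjusted p = 0.244). Genes at an unadjusted p under 0.05 were 2240 as reported, 1422 with genes above the median signal and 3592 with array weights. IGFBP5 lies below the median signal and has no value there.

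List medians moved by more than the spread between arrays in these cases. With genes above the median signal the ligand list was at 0.44, the proteases at −0.18, the IGFBP-domain relatives at −0.20 and the senescence list at −0.74, because fewer genes entered. After quantile normalization the proteases were at 0.045, the relatives at 0.0031, the FOXO list at 0.0085 and the mannose 6-phosphate list at −0.077. After cyclic loess the proteases were at 0.068, the FOXO list at −0.0065, the mannose 6-phosphate list at −0.054 and the p53 list at −0.23. With array medians subtracted the FOXO list was at −0.10. With arrays left out, the relatives moved past that spread without control replicate 2 (0.19), but not without control replicate 1 (0.021). The FOXO list ran from −0.10 (without control replicate 2) to 0.029 (without knockdown-labelled replicate 2), both past the spread. Within the spread stayed the ligands, from 0.041 (without control replicate 1) to 0.19 (without control replicate 2). So did the proteases, from −0.14 (without knockdown-labelled replicate 2) to −0.051 (without control replicate 1). The cause was not tested.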
